A study of Homo sapiens with 4 samples.

Results

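Baseline gene expression in the human cell line QGP-1, which was derived from a pancreatic neuroendocrine tumour, was described from the 2 arrays hybridised with RNA of cells kept in mock medium, out of 4 arrays in the series. Growth medium was RPMI-1640 plus 10% fetal bovine serum, and all 4 samples were then held for 24 h in RPMI-1640 with 0.1% serum. The 2 mock samples received no medium conditioned by pancreatic stellate cells, the fibroblast-like cells of the pancreas, and the other 2 samples did. Total RNA was amplified into antisense RNA, labelled with Cy5 and hybridised 1 sample to an array. The labels number the 2 mock arrays as replicates but do not say whether they came from separate cultures, so each SD below (n = 2) measures the spread between these arrays, which may be technical. QGP-1 is a single line, so nothing here measures how tumours differ.

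Neuroendocrine cells make peptide hormones or amines, store them in dense-core granules together with granins, and release them by calcium-triggered exocytosis. Prohormones are cut by convertases and trimmed by carboxypeptidases inside the granule, and many peptides are amidated at their last residue before release. In the pancreas the delta cell makes somatostatin, which restrains insulin and glucagon secretion, and somatostatin receptors on tumours of this kind are the targets of somatostatin analogue drugs.

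Each array held 28264 probes, and the median deposited intensity was 662 on mock array 1 and 829 on mock array 2, a gap of 0.32 on the log2 scale. The 2 arrays were therefore quantile normalised, which gives both the same set of values, and levels below are log2 normalised intensities. A gene holding the same place on both arrays has an SD of 0.00 by construction. Of the probes, 25893 carried a gene symbol, and the brightest probe was kept for each of 19090 genes. The median gene had a level of 10.08. A gene was called above background when it exceeded, on both mock arrays, the 95th percentile of 342 olfactory receptor genes, a family used mainly by the nasal sensory neurons; that threshold was 12.25 on array 1 and 12.04 on array 2. By this rule 4582 genes were above background, or 24.0% of all genes. The brightest 10.0% of genes (1909 genes) began at a level of 13.77.

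**Figure D1:**
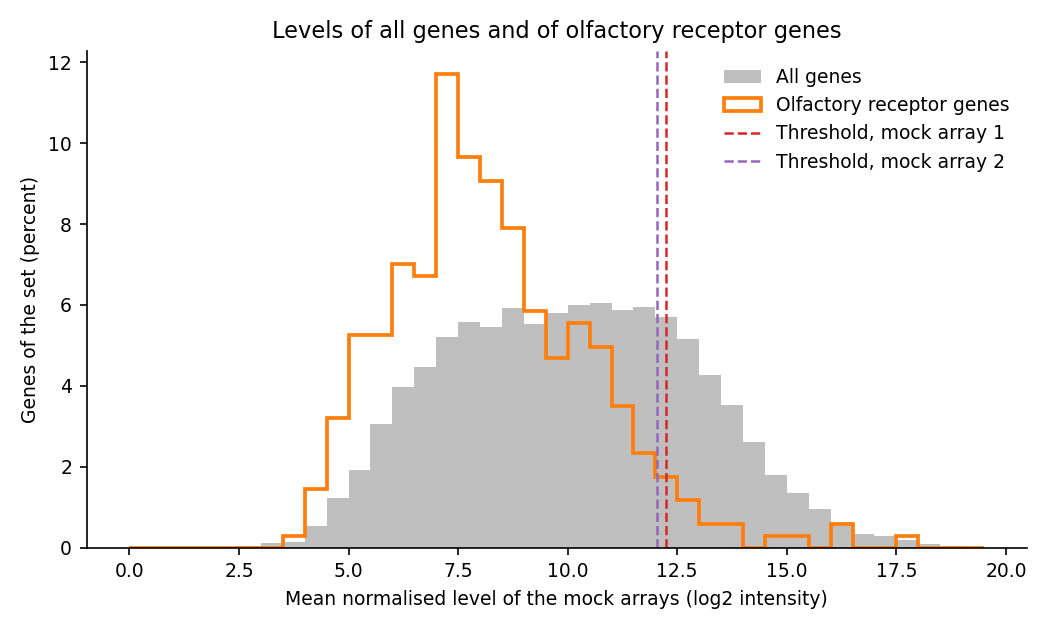
Distribution of the mean log2 normalised intensity over the 2 mock arrays (horizontal axis) as a percent of each set (vertical axis), for all 19090 genes (grey) and for the 342 olfactory receptor genes (orange). The median olfactory receptor gene had a level of 7.96 against 10.08 for all genes, and dashed lines mark the thresholds of 12.25 and 12.04 on the 2 arrays.

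The background family itself shows how far a level on this array can be read. The brightest olfactory receptor gene, OR8H1, had a level of 17.61 and rank 54 of all genes, with deposited intensities of 163373 and 242140. A second receptor, OR2T1, stood at 16.43. In all, 17 of the 342 were above background on both arrays. That count follows largely by construction, because the threshold is a percentile of this same family. Genes that every cell uses were dim in some cases: RPL3, a ribosomal protein gene, had a level of 5.82, and CFL1, the actin-severing cofilin, had 5.40. Brightness depends on the probe as well as on the RNA, so ranks below are ranks of brightness and not of transcript number, and a gene not above background is not shown to be absent. Probes of a gene also differed: of 107 listed genes above background that had more than 1 probe, 69 had a probe that was not above it, so each count below rests on the brightest probe.

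The neurotensin precursor gene NTS was the brightest gene on both arrays. Neurotensin is a peptide of gut endocrine cells and neurons. Its deposited intensities were 576946 on array 1 and 619765 on array 2, and its level was 19.19 on each (SD 0.00, n = 2). A second NTS probe had a mean level of 18.30, so both probes of the gene were far above background. CALCA, which encodes calcitonin and, by alternative splicing, the alpha form of calcitonin gene-related peptide, ranked 5. Its deposited intensities were 370611 and 465601, and its levels 18.61 and 18.70 gave a mean of 18.66 ± 0.06 (SD, n = 2). The second CALCA probe had 17.20. SST, the somatostatin precursor gene that marks the delta cell, ranked 18, with deposited intensities of 305322 and 320384. Its levels were 18.37 and 18.14, a mean of 18.25 ± 0.17 (SD, n = 2), and the gap between the arrays was small against its distance from the threshold.

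Among 43 measured genes for islet and gut peptide hormones, 8 were above background (18.6%, against 24.0% of all genes) and 5 were in the brightest 10%. The list was thus split between a few bright genes and many dim ones, and its median member was brighter than 37.6% of all genes. At the 99th percentile of olfactory receptor genes 4 of the 43 remained above, where 3.68% of all genes did. With the dimmest probe per gene 8 of the 43 were above (18.6%), where 16.6% of all genes were. Whether the list lay below or above the share of all genes thus depended on the rule. CALCB, encoding the beta form of calcitonin gene-related peptide, had levels of 15.20 and 15.18, a mean of 15.19 ± 0.01 (SD, n = 2). CALCA and CALCB are paralogs, and whether one transcript binds the other's probe is not known from the sources used here. GHRH, the growth hormone-releasing hormone precursor, followed with 14.14 and 14.32. Gastrin-releasing peptide (GRP) had a mean level of 12.80, neuromedin B (NMB), a related peptide, had 12.69, and galanin (GAL), a neuropeptide, had 12.51. All 3 lay less than 1 log2 unit above the threshold. PPY, the pancreatic polypeptide gene, was not among the 43 measured genes. The classical hormones of other islet cells that were measured were not above background on either array. INS (beta cells) had levels of 9.98 and 9.70, and GCG (alpha cells) had 7.85 and 7.71. Likewise GHRL, the ghrelin gene of epsilon cells, had a mean of 10.08, and IAPP, the amyloid peptide co-secreted with insulin, had 9.34. PYY, a gut peptide, stood at 4.25, among the dimmest of the list.

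**Figure D2:**
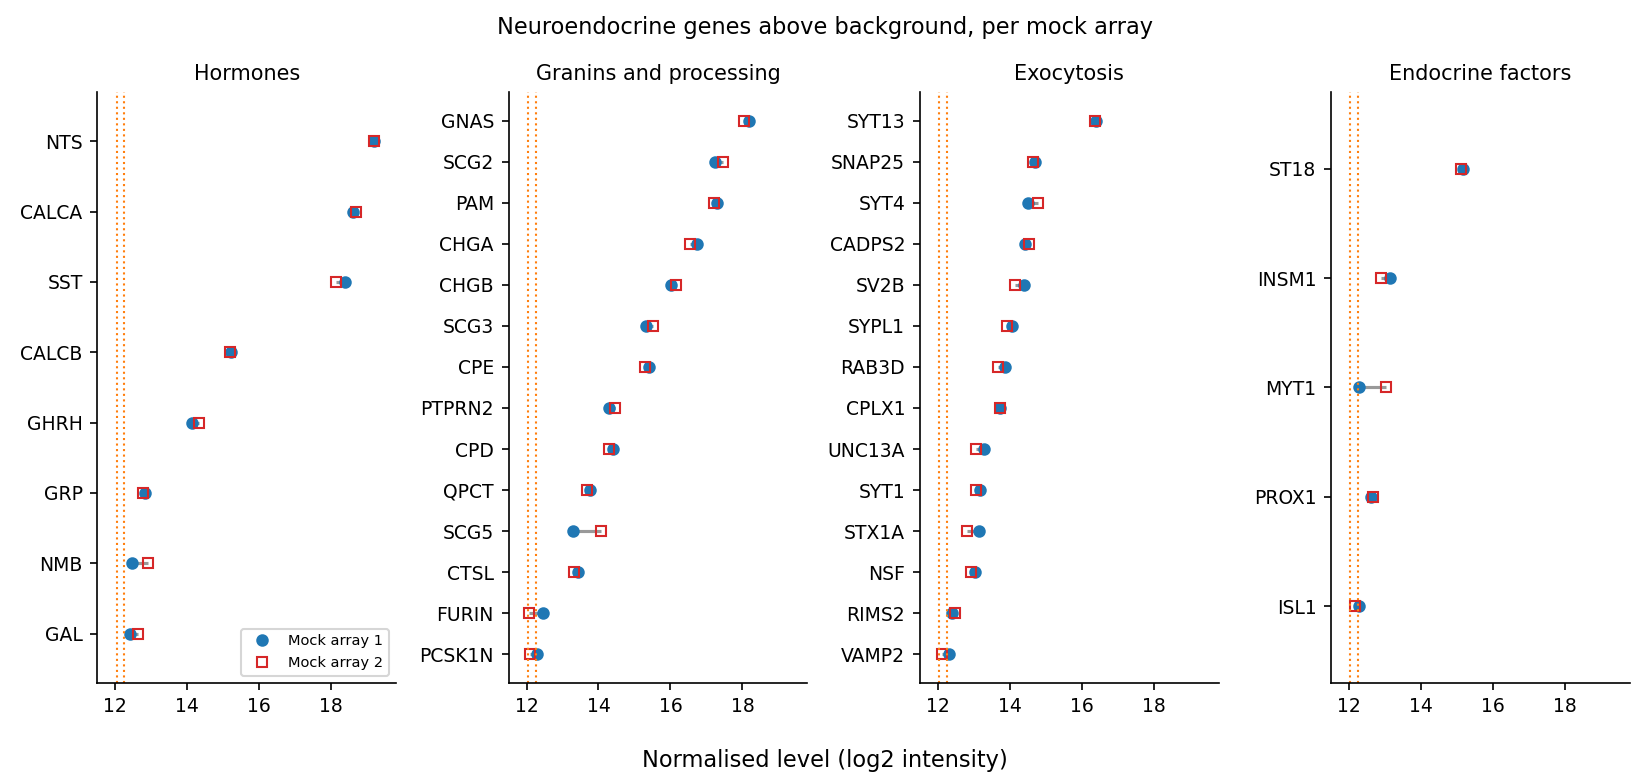
Log2 normalised intensity (horizontal axis) on mock array 1 (filled circles) and mock array 2 (open squares) for the hormone, granin and processing, exocytosis and endocrine factor genes above background on both arrays, with dotted lines at the thresholds of the 2 arrays. NTS, CALCA and SST lie above 18 on both arrays, and SCG5 and MYT1 show the widest gaps, of 0.77 and 0.74.

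The promoters of the 3 brightest hormone genes and of CHGA, the chromogranin A gene that is a general marker of neuroendocrine cells, are shown because SST and CHGA are textbook targets of factors that bind the cyclic AMP response element, TGACGTCA. The 250 bases before each start are given 5′ to 3′ on the gene's strand from RefSeq (GRCh38.p14). Capitals mark each core site, TGACG or its reverse complement CGTCA, and the full element where a pair of them overlaps. The regions are chr3:187670395-187670644 (minus strand) for SST, chr14:92922900-92923149 (plus) for CHGA, chr12:85874045-85874294 (plus) for NTS and chr11:14972352-14972601 (minus) for CALCA, each lying just upstream of the first exon.
SST: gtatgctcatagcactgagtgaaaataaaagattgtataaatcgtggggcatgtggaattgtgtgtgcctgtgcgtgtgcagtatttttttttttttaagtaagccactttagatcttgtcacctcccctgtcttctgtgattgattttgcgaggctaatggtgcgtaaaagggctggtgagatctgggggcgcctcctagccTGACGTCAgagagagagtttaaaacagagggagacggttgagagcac
CHGA: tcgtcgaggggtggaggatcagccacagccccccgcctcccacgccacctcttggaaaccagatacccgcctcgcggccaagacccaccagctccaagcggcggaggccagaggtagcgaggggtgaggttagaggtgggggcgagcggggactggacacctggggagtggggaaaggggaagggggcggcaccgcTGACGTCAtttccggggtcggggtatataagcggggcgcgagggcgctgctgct
NTS: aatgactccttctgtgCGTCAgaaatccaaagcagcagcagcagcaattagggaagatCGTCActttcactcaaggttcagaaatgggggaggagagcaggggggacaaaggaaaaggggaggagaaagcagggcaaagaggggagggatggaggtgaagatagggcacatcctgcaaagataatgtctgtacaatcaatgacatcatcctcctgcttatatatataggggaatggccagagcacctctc
CALCA: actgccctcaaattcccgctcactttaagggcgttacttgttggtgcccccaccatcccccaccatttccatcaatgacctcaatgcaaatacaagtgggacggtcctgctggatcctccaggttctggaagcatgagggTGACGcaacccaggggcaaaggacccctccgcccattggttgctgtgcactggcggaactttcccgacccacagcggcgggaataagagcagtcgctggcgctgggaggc
The full element began 47 bases before the start in SST and 54 bases before it in CHGA. NTS held 2 separate core sites and CALCA held 1, with no full element in either window. Among 27305 RefSeq promoters of 250 bases, 482 (1.77%) held the full element and 21.7% a core site on either strand. The full element stood in 357 of 15159 measured genes with a promoter (2.36%), in 134 of 3853 above background (3.48%) and in 6 of 84 of the 100 brightest (7.14%). A core site stood in 25.8%, 33.7% and 44.0% of the same 3 sets, in 5 of 6 hormone genes above background that had a promoter entry, and in 4 of 11 such granin and processing genes (36.4%). The full element stood in 1 of the 6 and 1 of the 11. These are matches of letters, given as a description with no test.

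No somatostatin receptor was above background in the cells that carried this SST signal (0 of 5, against 24.0% of all genes). A list of 5 genes is small for a count beside that share. SSTR2, the receptor mainly targeted by somatostatin analogues, had levels of 8.20 and 8.57. SSTR5 had 10.70 and 9.98, SSTR4 had 11.28 and 10.90, SSTR3 a mean of 7.80 and SSTR1 levels of 7.60 and 7.39. All 5 were below the threshold on both arrays, and the median receptor was brighter than 30.5% of all genes. SSTR1 and SSTR2 were each read by 2 probes, of which the brighter is given. SSTR4 and SSTR5, dim as they were, stood above the median gene.

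Genes of the dense-core granule were often bright. Of 23 granin and prohormone processing genes measured, 14 were above background (60.9%, against 24.0% of all genes) and 9 were in the brightest 10%, with the median member brighter than 87.1% of genes. At the stricter 99th percentile of olfactory receptor genes 7 of the 23 remained above, where 3.68% of all genes (702) did. GNAS, whose complex locus encodes the stimulatory G protein alpha subunit and a granin-like protein, had levels of 18.18 and 18.03. Whether its single probe tells these products apart is not known from the sources used here. SCG2, the secretogranin II gene, had 17.25 and 17.47, and CHGA had 16.73 and 16.55, a mean of 16.64 ± 0.13 (SD, n = 2). The deposited CHGA intensities were 94849 and 109107. CHGB (chromogranin B) and SCG3 (secretogranin III), which help load the granule, had mean levels of 16.07 and 15.41. SCG5 encodes the chaperone 7B2 of prohormone convertase 2, and its 2 arrays lay further apart, at 13.29 and 14.06. Among the processing enzymes, PAM, which amidates peptides, had a mean of 17.25 on its brightest probe and 10.49 on its other probe. CPE, the carboxypeptidase that trims basic residues after cleavage, had 15.41 and 15.31. PTPRN2, a granule membrane phosphatase-like protein and islet autoantigen, had 14.37, and QPCT, which forms pyroglutamate at the start of peptides, had 13.71. FURIN, a convertase of the constitutive pathway, had 12.27, and PCSK1N, a granin-like inhibitor of prohormone convertase 1, had 12.19, both just above the threshold on both arrays. VGF, a granin-related precursor, was not above background at 11.02 and 10.91. PCSK1 and PCSK2, the granule convertases themselves, were not analysed here.

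For synaptic and granule exocytosis, 14 of 43 measured genes were above background (32.6%, against 24.0% of all genes) and 7 were in the brightest 10%, so this list lay much closer to the share over all genes than the granins did. SYT13, an atypical synaptotagmin of endocrine cells, had 16.40 and 16.38. SNAP25, a plasma membrane SNARE protein of regulated exocytosis, had 14.71 and 14.64, and SYT4, another synaptotagmin, had 14.52 and 14.77. CADPS2, which primes dense-core granules, had a mean of 14.49, and SV2B, a vesicle glycoprotein, had 14.27, each with a second probe that was not above background. The SNARE partner STX1A (syntaxin 1A) had 12.99 and VAMP2 (synaptobrevin 2) had 12.22. SYP encodes synaptophysin, the usual stain for neuroendocrine tumours, and its single probe was not above background, at 9.39 and 9.68. SYPL1, its widely expressed relative, had 14.08 and 13.93 on its brightest probe and a mean of 9.29 on its other probe. At the 99th percentile of olfactory receptor genes 1 of these 43 genes remained above, with 3.68% of all genes above that cut. With the mean of a gene's probes 8 of the 43 were above background, where 18.5% of all genes were. With the dimmest probe per gene 7 were, where 16.6% of all genes were. Under both probe rules the list lay near the share over all genes.

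A list of amine synthesis and storage genes, which also held general neuroendocrine markers, gave 3 of 19 above background (15.8%, against 24.0% of all genes). Its median member was brighter than 54.8% of genes, and 11 of the 19 were above the median gene. Of the 3, one makes amines and the other two are general markers: DDC, the decarboxylase that makes dopamine and serotonin, at a mean of 13.79, ENO2, neuron-specific enolase, at 13.56, and NCAM1, an adhesion molecule of neuroendocrine cells, at 12.51. DDC and NCAM1 each had a further probe that was not above background. The serotonin-synthesis gene TPH1 had levels of 10.43 and 10.53. Of the vesicular monoamine transporters, SLC18A2 had 7.07 and 6.51 and SLC18A1 had 1.81 and 2.17, far under the threshold.

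Of 34 islet and endocrine transcription factor genes, 5 were above background (14.7%), below the 24.0% of all genes. ST18, a zinc finger factor of the MYT family, had levels of 15.16 and 15.11, a mean of 15.13 ± 0.04 (SD, n = 2) and rank 664. INSM1, a zinc finger repressor of endocrine progenitors and a marker of neuroendocrine tumours, had 13.13 and 12.89. MYT1, of the same family as ST18, had 12.28 and 13.02, so it stood only just over the threshold on array 1. PROX1 (12.64) and ISL1 (12.21), homeobox factors of islet development, were also above. MYT1 and PROX1 each had a further probe that was not above background. Other factors of the pancreas and the beta cell were below the threshold on both arrays, among them PDX1 with a mean of 9.27. NKX2-2 with 9.85, NKX6-1 with 9.61 and NEUROG3 with 7.36 were below it too. PAX6, needed for islet hormone genes, was nearer the threshold at 11.24 and 11.15.

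Broader foregut and epithelial lineage factors gave 10 of 36 above background (27.8%), close to the 24.0% of all genes, and 4 in the brightest 10%. The count was 6 with the dimmest probe per gene, where 16.6% of all genes were above. At the 99th percentile of olfactory receptor genes, which 3.68% of all genes exceeded, it was 4. These 4 were ID2, ONECUT2, FOXA2 and SOX4. ID2, which binds helix-loop-helix factors and keeps them off DNA, had levels of 17.21 and 17.33, a mean of 17.27 ± 0.09 (SD, n = 2) and rank 95. Its 4 probes did not read alike, however: the other 3 had mean levels of 16.83, 16.69 and 8.73. ONECUT2, a liver and pancreas homeobox factor, had 16.45 and 16.36, a mean of 16.40 ± 0.07 (SD, n = 2), on its brightest probe and 11.87 on its other probe. FOXA2, the pioneer factor of the endoderm, had 16.03 and 16.13, and SOX4, a progenitor factor, had 15.95 and 15.86. NKX2-1, best known from lung and thyroid, had 13.82 and 13.62, and SOX2, a factor of stem cells and foregut, had 13.38 and 13.39; both were above background on both arrays.

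Genes of the activin, BMP and TGF-beta pathways gave 13 of 42 above background (31.0%, against 24.0% of all genes). The count was 5 with the mean of a gene's probes, 4 with its dimmest probe and 3 at the 99th percentile of olfactory receptor genes. Of all genes 18.5%, 16.6% and 3.68% were above under the same 3 rules. Under both probe rules the list's share was thus below that of all genes. FST encodes follistatin, which binds and blocks activin, and had deposited intensities of 193858 and 195951. Its levels were 17.76 and 17.41, a mean of 17.59 ± 0.25 (SD, n = 2) and rank 55, and its other probe had 14.26. GDF15, a distant TGF-beta family member released by stressed cells, had 17.32 and 17.64. By contrast INHBA, which encodes the activin A subunit, was not above background at 9.97 and 9.72. Receptors lay on both sides of the threshold. ACVR1 had 12.59, ACVR2A 12.40, ACVR2B 12.28 and BMPR2 13.19, while the TGF-beta receptors TGFBR1 and TGFBR2 had 10.27 and 9.89 and the activin receptor ACVR1B had 9.47, none of these last 3 above background. SMAD4, the shared transducer, had 13.97 and SMAD3 12.98, both above background, and the BMP transducer SMAD1 had 10.76, which was not. The BMP targets ID1 and ID3 had 13.31 and 13.13, both above background. ACVR1, ACVR2A, ACVR2B, BMPR2, SMAD3 and ID3 each had a further probe that was not above background.

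SST, CALCB, FST, ID2, ONECUT2 and ST18, taken here as markers of the line, were all above background on both arrays and, by their means, in the brightest 10%. They were chosen with earlier results of these data known, so this describes them and supports nothing. Their 6 levels ran from 15.13 to 18.25, and the median SD between the arrays was 0.08.

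**Figure D3:**
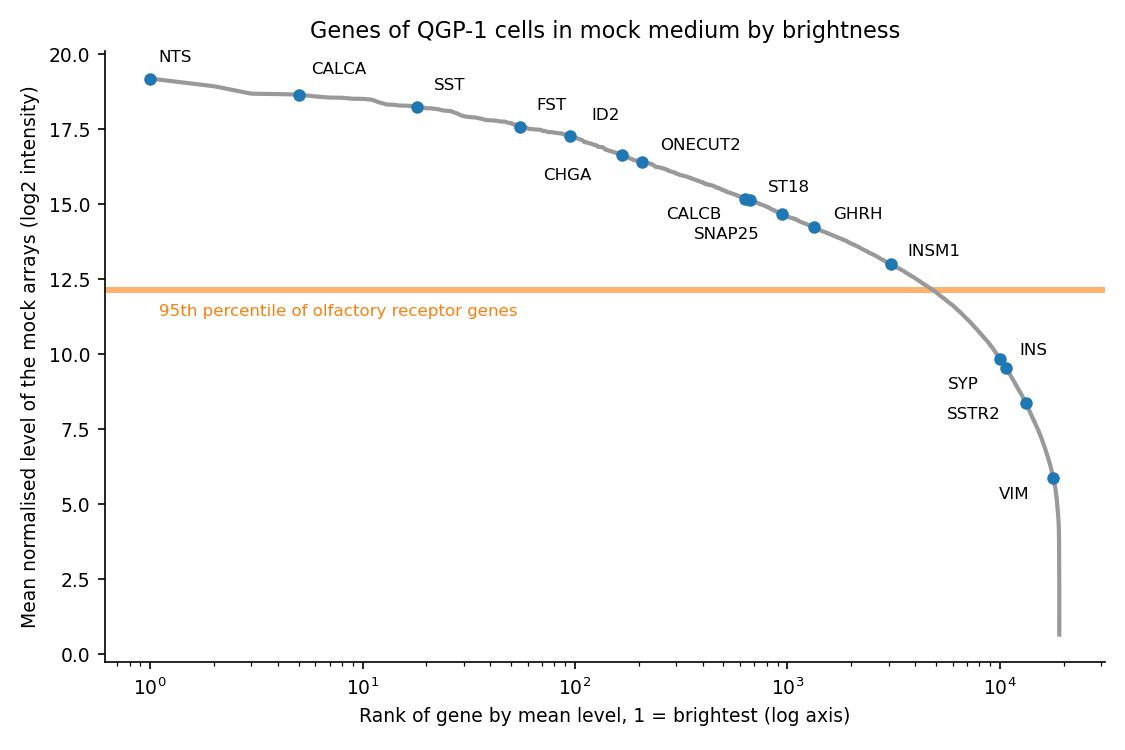
Mean log2 normalised intensity over the 2 mock arrays (vertical axis) of 19090 genes in order of rank (horizontal log axis), with named genes as points and a band at the background threshold. NTS lies at rank 1, SST at 18, FST at 55 and ST18 at 664, while INS, SYP, SSTR2 and VIM lie below the band.

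Among Notch pathway and neuroendocrine surface genes, 7 of 26 were above background (26.9%), close to the 24.0% of all genes, and 4 were in the brightest 10%. The count was lowest, at 2, at the 99th percentile of olfactory receptor genes, which 3.68% of all genes exceeded. It was highest, at 12, with the threshold from keratin-associated, defensin and taste receptor genes, which 34.8% of all genes exceeded. DLL3, an inhibitory Notch ligand found on the surface of high-grade neuroendocrine tumours, had levels of 15.50 and 15.39 on its brightest probe and a mean of 11.20 on its other probe. LFNG, a glycosyltransferase that tunes Notch binding, had 15.36 and 15.74 on its brightest probe and a mean of 7.49 on its other probe. CD24, a surface glycoprotein, had 14.96 and JAG1, an activating Notch ligand, had 13.89. The receptors and a target were dim: NOTCH1 had a mean of 8.11, NOTCH2 of 10.37 and HES1 of 11.21, none above background on either array.

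Genes of epithelial junctions and adhesion were often bright, with 15 of 33 above background (45.5%, against 24.0% of all genes) and 9 in the brightest 10%. EPCAM, the epithelial cell adhesion molecule, had levels of 17.33 and 17.48, and CDH1, E-cadherin, had 15.46 and 15.49. Claudins of tight junctions were also bright, with CLDN7 at a mean of 15.64, CLDN4 at 15.37 and CLDN3 at 14.21. CEACAM5, the carcinoembryonic antigen gene, had 15.28 and 15.09. Of 13 keratins, 6 were above background (46.2%). At the 99th percentile of olfactory receptor genes, which 3.68% of all genes exceeded, 6 junction genes and 1 keratin remained above. KRT18, a keratin of simple epithelia, had 16.60 and 17.01, whereas its partner KRT8 had 8.41 and 9.22, below the threshold on both arrays. KRT7, a duct keratin, had 14.46 and KRT19 had 12.52.

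Markers of other cell types were read against the 24.0% of all genes above background. Of 24 fibroblast and stellate cell markers, 2 were above background (8.33%), SPARC at 13.19 and MMP2 at 12.78, while the defining genes COL1A1, COL3A1, ACTA2 and VIM had means of 11.55, 4.59, 8.78 and 5.87. The deposited intensities of the 24 summed to 28911 and 30337. Acinar markers gave 1 of 27, the phospholipase gene PLA2G1B at 13.35, with trypsinogen PRSS1 at 9.36. Immune markers gave 1 of 19, CD3D at 12.65 on the brighter of its 2 probes, with the pan-leukocyte gene PTPRC at 6.43. Endothelial (0 of 14) and hepatocyte (0 of 18) markers gave none, with PECAM1 at 9.66 and ALB at 6.43. No marker named here was at 0, but 0 is only the floor set before taking log2. COL3A1, VIM, PTPRC and ALB lay below 7.96, the level of the median olfactory receptor gene. COL1A1, ACTA2, PRSS1 and PECAM1 lay between that level and the threshold. The part of other cells in any of these levels was not tested. Duct markers gave 6 of 18 (33.3%), among them KRT7, the annexin ANXA4 at 13.84 and the duct progenitor factor SOX9 at 12.72. Neuronal and glial markers gave 5 of 18 (27.8%): the microtubule genes MAP2 (14.97, other probe 8.66), DCX (13.94), TUBB3 (13.56) and STMN2 (13.30, other probe 11.04), and the growth cone gene GAP43 (12.35).

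**Figure D4:**
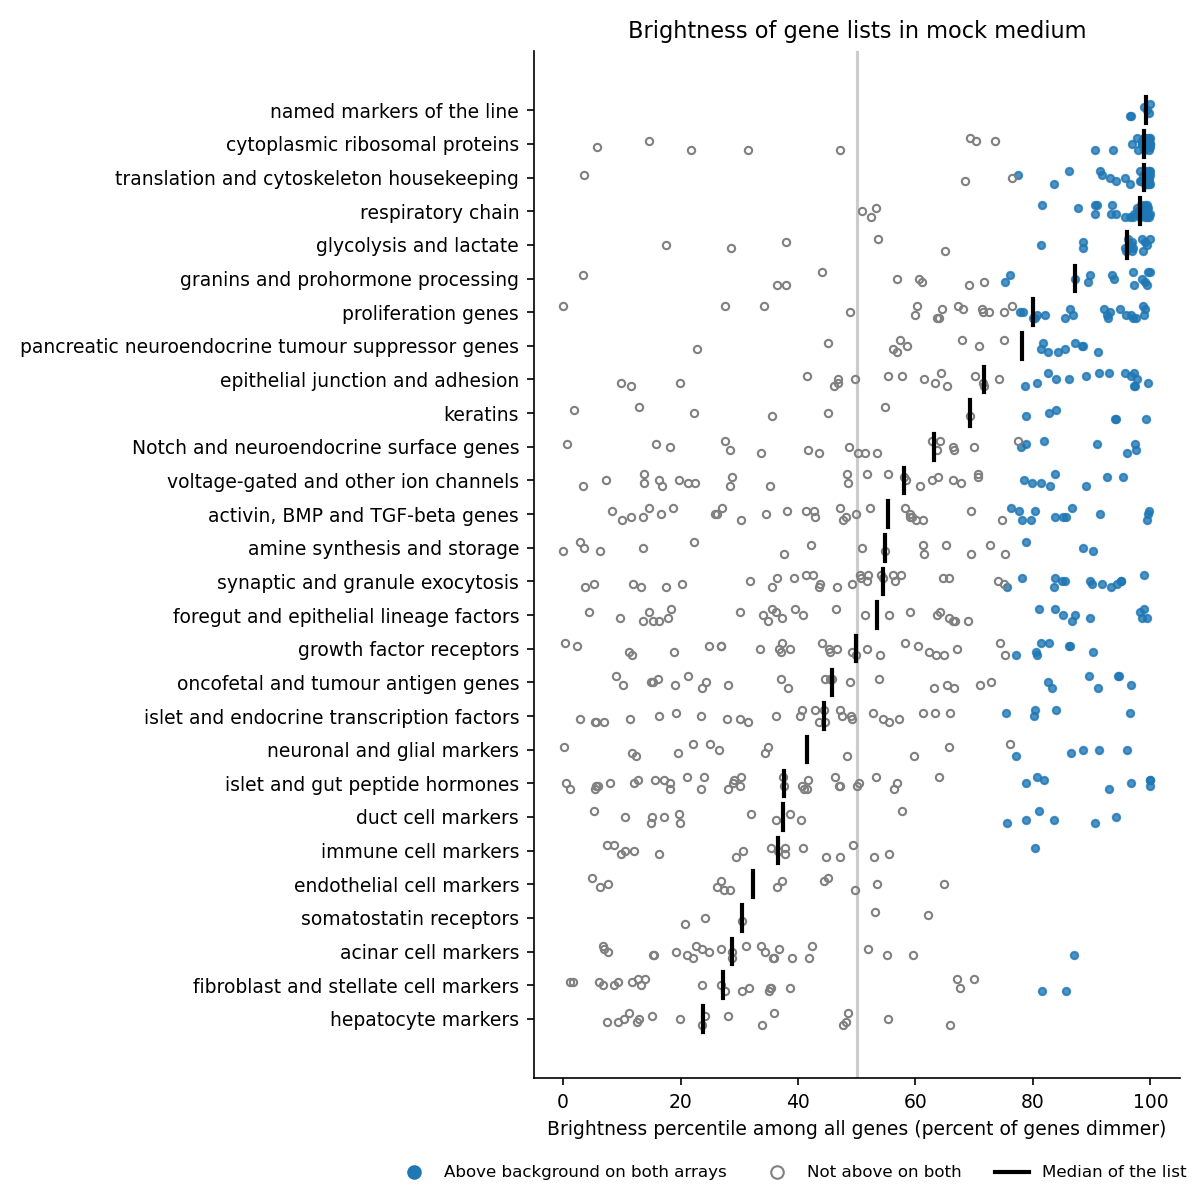
Brightness percentile among all 19090 genes (horizontal axis, percent of genes dimmer) of each measured member of 28 gene lists, filled where above background on both mock arrays, with a black bar at each list's median and a grey line at 50%. The median respiratory chain gene lies at 98.2% and the median granin or processing gene at 87.1%, and the median hormone gene lies at 37.6% although 5 hormone genes are in the brightest 10%.

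Cell cycle genes were often above background after 24 h in 0.1% serum. Of 37 proliferation genes, 21 were above background (56.8%, against 24.0% of all genes) and 12 were in the brightest 10%. PCNA, the sliding clamp of replication, had levels of 16.69 and 16.60, CDK4, the G1 kinase, had 16.43 and 16.37, and RRM2, a subunit of ribonucleotide reductase, had 15.36 and 15.33. TOP2A (topoisomerase II alpha) had a mean of 14.62, and MKI67, the gene of the Ki-67 antigen used to grade these tumours, had 12.46. The checkpoint kinase gene BUB1B was very dim, at a mean of 2.58 ± 0.59 (SD, n = 2). At the 99th percentile of olfactory receptor genes 6 of the 37 remained above, with 3.68% of all genes above that cut.

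Growth factor receptors gave 8 of 37 above background (21.6%), close to the 24.0% of all genes. At the 99th percentile of olfactory receptor genes 0 of the 37 and 3.68% of all genes remained above. With the dimmest probe per gene the count was 2, where 16.6% of all genes were above. FGFR1 had a mean level of 13.80, the insulin receptor INSR 13.28, MET, the hepatocyte growth factor receptor, 13.26, IGF1R 12.88, RET 12.76 and KIT 12.70. All of these but KIT had a second probe that was not above background, for example 7.14 for MET. EGFR at 10.42 and ERBB2 at 7.86 were below the threshold on both arrays. Ion channels gave 8 of 33 (24.2%), also close to all genes on the brightest probe, and 0 at the 99th percentile. With the mean of a gene's probes 3 of the 33 were above, where 18.5% of all genes were. With the dimmest probe 2 were, where 16.6% of all genes were. Under both probe rules the share of ion channels was thus below that of all genes. KCNH2, a potassium channel, had 14.76 on its brightest probe and 11.59 on the other, SCN3A, a sodium channel of islets and neurons, had 14.15, and ABCC8, the sulfonylurea receptor of the beta cell potassium channel, had 13.64.

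Of 18 genes known as suppressors or recurrently mutated in pancreatic neuroendocrine tumours, 9 were above background (50%, against 24.0% of all genes) and 1, TSC2 at 13.91, was in the brightest 10%. At the 99th percentile of olfactory receptor genes 0 of the 18 remained above, with 3.68% of all genes above that cut. TSC2 restrains mTOR. DAXX, a histone chaperone, had levels of 13.44 and 13.63, SETD2, a histone methyltransferase, a mean of 13.38, and VHL, which targets hypoxia-inducible factors, 13.18. The other SETD2 probe had 10.19. ATRX, the partner of DAXX, had 10.51 and 10.67, and MEN1, the menin gene, had 10.74 and 10.63, neither above background. RB1 at 11.82 and CDKN2A at 11.58, both cell cycle brakes, lay under 1 log2 unit below the threshold. The mutation state of these genes is not measured by the arrays.

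Oncofetal and tumour antigen genes gave 1 of 29 above the 99th percentile of olfactory receptor genes, which 3.68% of all genes exceeded. At the usual threshold 7 of 29 were above background (24.1%), the share of all genes being 24.0%. Besides CEACAM5 they were the RNA-binding protein genes IGF2BP2 (14.57) and IGF2BP3 (13.90), the imprinted long non-coding RNA H19 (14.53), the cancer-testis genes PAGE1 (13.70) and MAGEA6 (12.93), and CEACAM6 (12.88). MAGEA6 belongs to a family of near-identical copies, so its reading is uncertain, and its other probe, at 11.67, was not above background. TERT, the telomerase catalytic subunit, had a mean of 9.69.

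Genes of general metabolism and translation filled much of the bright end. Above background were 31 of 39 ribosomal protein genes (79.5%), 29 of 32 translation and cytoskeleton genes (90.6%) and 34 of 37 respiratory chain genes (91.9%). So were 15 of 20 genes of glycolysis and lactate (75%). The share of all genes was 24.0%. Among the 30 brightest genes 9 encode ribosomal proteins, led by RPLP1 at 18.64 and 18.74. SEC11C, a catalytic subunit of the signal peptidase that removes signal peptides from secreted proteins, ranked 2 with 18.89 and 18.98. S100A6, a calcium-binding protein, had 18.74 and 18.61, and TFF3, a trefoil peptide of mucous epithelia, had 18.37 and 18.21. GCNT3, which builds mucin-type glycans, had 18.27 and 18.31, and TSPAN8, a tetraspanin of epithelial tumours, had 18.16 and 18.31. Alongside them stood GAPDH (18.59), the macrophage migration inhibitory factor MIF (18.28), the respiratory chain gene COX6A1 (18.55), the nucleolar protein gene NPM1 (18.52) and the actin-binding thymosin TMSB10 (18.40). For COX6A1 the other probe had 5.72, and for NPM1 the other 2 had 14.84 and 10.69. Some bright probes belong to near-identical copies and cannot be assigned to one gene: PPIAL4D had 18.32 while its parent PPIA had 11.63, PTMAP12 had 18.18 while PTMA had 12.30, and MTRNR2L6 resembles the mitochondrial 16S ribosomal RNA.

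The difference between the 2 mock arrays was small beside that between probes of one gene, whose brightest and dimmest lay a median of 2.87 log2 units apart among 1897 genes above background with more than 1 probe. Across the 19090 genes Pearson's r was 0.991 and Spearman's rho 0.993, given as a description since genes are not independent replicates. The median absolute difference was 0.18 over all genes and 0.13 over the genes above background, for which 95% of genes differed by at most 0.38. In all, 497 genes differed by over 1 log2 unit. Of these, 2 were above background on both arrays, DENND6B (14.26 and 12.84) and RGS6, a regulator of G protein signalling (12.44 and 13.79). The 2 arrays shared 28 of their 30 and 93 of their 100 brightest genes.

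Among genes above background on at least 1 mock array, the largest gap was that of TMEM230, an endosomal membrane protein gene, with deposited intensities of 47898 on array 1 and 271 on array 2 (levels 15.75 and 7.97). On the stellate cell medium arrays the same probe had 47256 and 59061, so mock array 2 stood alone. FAM83A, an epithelial signalling adaptor gene, went the other way, with 560 and 28318 on the mock arrays against 452 and 510 on the other 2. The next gap, of CSMD2, was 1.93 log2 units, and the remaining 7 of the 10 largest ran down to 1.35 in size. Neither TMEM230 nor FAM83A counted as above background on both arrays.

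**Figure D5:**
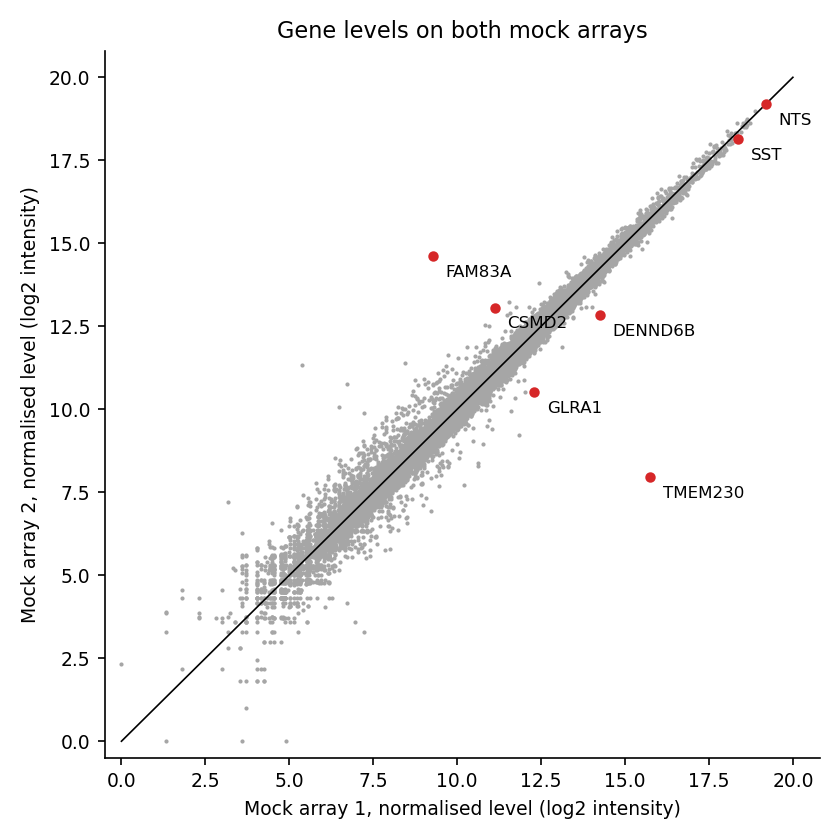
Log2 normalised intensity of each of 19090 genes on mock array 1 (horizontal axis) against mock array 2 (vertical axis), with the line of equal values and named genes in red. NTS and SST lie near the line, while TMEM230 and FAM83A lie farthest from it among the named genes.

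Ranked apart in the same way, the 2 arrays of cells given stellate cell medium had much the same bright genes. They shared 24 of the 30 brightest genes with the mock arrays (80%), 90 of the 100 brightest (90%) and 429 of the 500 brightest (85.8%). Compared singly, the arrays numbered 1 of each group shared 89 of their 100 brightest and those numbered 2 shared 86. The 2 mock arrays shared 93 with each other. The measures differ: for 89 and 86 the arrays were not normalised and each took its own brightest probe per gene. For 93 the values were normalised and the probe was chosen by the mean over both mock arrays. NTS ranked 1 in mock medium and 8 in stellate cell medium, CALCA 5 and 2, SST 18 and 40, and TFF3 16 and 32. GDF15 ranked 69 and 11, and ASNS, the asparagine synthetase gene, 94 and 27. Among the named markers of the line FST ranked 55 and 522, ID2 95 and 145, ONECUT2 206 and 675, CALCB 632 and 160, and ST18 664 and 1656. These are ranks with no test, and the effect of the stellate cell medium is not assessed here.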

How the data were processed

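Values were taken from the authors' deposited table of array intensities (linear scale, 1 value per probe and array). The background correction, scaling and scanner settings behind them are not given in the sources used here, and no genome build is named. Probes were named by the platform's annotation, with all 25893 named probes matched to RefSeq by Entrez ID. The members and gene lists were chosen with earlier results of these data known. Because the medians of the 2 mock arrays differed by over 0.2 on the log2 scale, the arrays were quantile normalised. A floor of 1 was set, log2 taken, and the probe of highest mean over the mock arrays kept per gene. Genes named are the 6 markers of the line and genes drawn from the 30 brightest and from the 10 of largest mock difference. Up to 8 of the brightest members of each list are also named, with defining members that were dim. Not every gene of these sets is named. Examples of probe limits and of rank changes were chosen after their values were seen. Of the listed genes 713 were measured and 62 were not analysed here. No test between groups was made, and 2 arrays limit the precision. Promoters came from RefSeq (GRCh38.p14). Python 3.11.15, numpy 2.4.6 and pandas 2.3.3 were used, and the ranking was tested on simulated data. Alternatives changed the normalisation, added constant, probe rule, threshold and array left out.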

Additional observations from a re-analysis of the deposited data

How the results depend on the processing

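The count of genes above background, 4582, depended on the threshold: it was 702 (3.68% of genes) at the 99th percentile of olfactory receptor genes and 6729 at the 90th, and 6635 with the 95th percentile of keratin-associated, defensin and taste receptor genes. It was 3176 with the dimmest probe per gene, and leaving out 1 array gave 4625 to 5067. Normalisation and leaving out 1 array moved none of the 28 list counts by over 1.5 times, but the 99th percentile moved 21 and the dimmest probe 10. Of the 30 brightest genes 20 were kept with the dimmest probe, and 28 to 29 without 1 array. Lists above the share of all genes numbered 18, and 16 to 17 without 1 array. They numbered 15 with the dimmest probe and 13 at the 99th percentile of olfactory receptor genes. Of 107 listed genes above background with more than 1 probe, 69 had a probe that was not above it. With the dimmest probe ID2 was brighter than 45.6% of genes in place of 99.5%. The 497 genes differing by over 1 log2 unit between the mock arrays became 220 with an added constant of 50, which compresses dim values by construction. The cause of the other changes was not tested. No paired analysis was possible because no result comes from a test between groups. Without the scanner's own background, how far a dim reading lies above an empty spot is unknown.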

Other observations

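On the mock arrays 33 of 728 long non-coding RNA genes (4.53%) were above background, and 4501 of 17940 protein-coding genes (25.1%), with no test made. By chromosome the share ran from 16.9% on chromosome 21 (41 of 242 genes) to 30.7% on chromosome 7 (274 of 893). A further 2371 probes carry no gene name. Of these, 334 (14.1%) exceeded the threshold on both mock arrays, and 4 were brighter than SST, the brightest at a mean level of 18.93. In all 121 probes had identical deposited values on the 2 mock arrays.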
